A study of Mus musculus with 16 samples.

Results

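The 3 dendritic cell (DC) populations sorted from spleen were compared with the 2 mature populations sorted from bone marrow, plasmacytoid DC (PDC) and Gr1+ monocytes, by the levels of their microRNAs (miRNAs). These 5 populations were chosen by their sample titles and account for 10 of the 16 arrays of the series. The other 6 arrays held 3 marrow progenitor populations (MP, MDP and CDP) and entered only the estimate of the spread and a later comparison. Each population had 2 arrays, labelled as biological replicates.

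All cells came from female C57Bl/6 mice aged 6 weeks, with no genetic change or treatment, and were sorted without culture. The spleen populations were CD4+ DC (CD11c+ CD3- CD4+ CD8- B220-), CD8+ DC (CD11c+ CD3- CD4- CD8+ CD86+ B220-) and CD4-CD8- DC (CD11c+ CD3- CD4- CD8-), each from pools of 8 mice and enriched on CD11c beads before the sort. B220 is not among the markers listed for CD4-CD8- DC. PDC (B220+, intermediate CD11c, SiglecH+, CD317+) and Gr1+ monocytes (CD11b+ CD115+ Gr1+) came from femur and tibia of pools of 5 mice, after a Ficoll step. Tissue, cell type, pool size and enrichment change together between the spleen and the marrow samples, so their parts cannot be told apart. In such bulk samples, fewer cells of a type and less RNA per cell cannot be told apart either.

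Mature miRNAs are short RNAs cut from hairpin precursors and loaded into Argonaute, where bases 2 to 8, the seed, select the messenger RNAs to be repressed. Conventional DC of the spleen take up antigen and present it to T cells, PDC release type I interferon, and Gr1+ monocytes leave the marrow for sites of inflammation. Loss of the miRNA-processing enzyme Dicer in mouse DC, and loss of single miRNAs such as miR-142, are known to disturb particular DC populations.

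Levels are given on the log2 scale, with 0 for a signal equal to the 75th percentile that its array was scaled to. They compare 1 miRNA across arrays and do not rank different miRNAs. The floor lay at -5.30 on array design 1, which holds every replicate 1, and at -5.78 on array design 2, which holds every replicate 2. Of 604 mouse miRNAs on both designs, 124 to 174 were detected on a spleen array and 123 to 171 on a marrow array, 0 spots were saturated, and 175 miRNAs were tested. A miRNA was called where limma, with a mean for each population and the array design as a block, gave an adjusted p under 0.05.

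Of the 175 tested miRNAs, 46 (26.3%) had all 3 spleen means on one side of both marrow means. In 29 (16.6%) the spleen means were higher and in 17 (9.71%) they were lower. For 5 means in random order without ties, the probability of such a separation is 0.2. The 26.3% is to be read beside that share. Among these 46, the miRNAs that lay highest in spleen DC relative to the marrow cells were miR-34a, miR-146a, miR-155, miR-151-5p and miR-342-3p, and those that lay lowest were miR-148a, miR-181b and miR-181d. Mature sequences are shown for the miRNAs on which these results turn, in order to show which of them share a seed. They are from RefSeq on GRCm38.p6, with the seed in capitals. Of the 175 tested names 151 matched a RefSeq mature sequence, and 35 of the 46 did.
miR-34a: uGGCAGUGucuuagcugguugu
miR-146a: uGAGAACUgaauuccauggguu
miR-146b: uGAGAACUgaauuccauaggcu
miR-155: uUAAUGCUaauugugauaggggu
miR-342-3p: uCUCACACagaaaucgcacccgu
miR-142-3p: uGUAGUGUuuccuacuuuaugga
miR-142-5p: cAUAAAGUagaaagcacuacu
miR-22: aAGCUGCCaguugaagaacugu
miR-423-5p: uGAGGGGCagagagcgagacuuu
miR-148a: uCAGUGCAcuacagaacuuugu
miR-181b: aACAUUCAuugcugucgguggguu
miR-181d: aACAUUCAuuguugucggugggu
miR-27b: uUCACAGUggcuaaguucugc
miR-25: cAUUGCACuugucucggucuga
miR-93: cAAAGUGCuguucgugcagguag
miR-106b: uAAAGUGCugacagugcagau

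Among these, miR-146a and miR-146b share the seed GAGAACU and differ at 2 of 22 bases. The pair miR-181b and miR-181d shares ACAUUCA and differs at 1 of 23 bases, and miR-93 and miR-106b share AAAGUGC. How much signal the probe of one such relative takes from the other was not tested. Seeds were counted over the tested miRNAs with a matched sequence. Only GAGAACU, among the seeds held by at least 2 of these, had every such member on one side and the same side. This holds for the processing used here. miR-146b was not separated with scaling over all miRNAs, after quantile normalization or under normexp background correction, while miR-146a was separated in each. Of the 5 tested miRNAs with AAAGUGC, 2 lay lower and the other 3 (miR-17, miR-20a and miR-20b) lay on no one side. For ACAUUCA, 2 of 4 lay lower, and miR-181a and miR-181c did not.

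**Figure D1:**
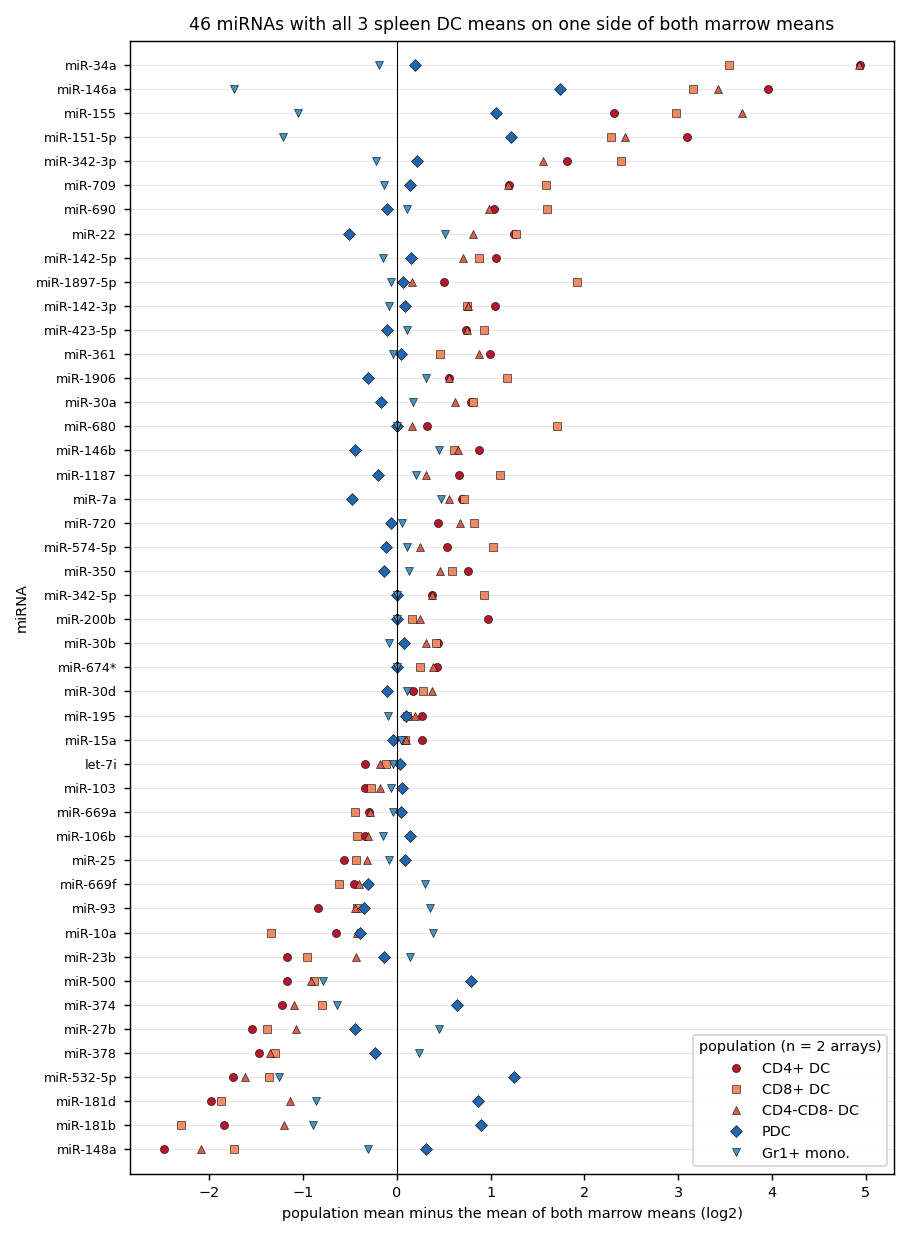
Means of the 5 populations (2 arrays each) for the 46 miRNAs whose 3 spleen DC means lie on one side of both marrow means, each given as the log2 distance from the mean of both marrow means (horizontal axis), with 1 miRNA per row. Red symbols are spleen DC and blue symbols are marrow cells. The widest separations are at miR-34a at the top and miR-148a at the bottom, and the rows in the middle, such as miR-195 and miR-15a, are separated by little.

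The mean of the 3 spleen populations was then tested against the mean of PDC and Gr1+ monocytes. The test called 84 of 175 miRNAs (48%), 44 higher (25.1%) and 40 lower (22.9%) in spleen DC. Of the 46 miRNAs with separated means, 39 were called, 22 of 29 higher and 17 of 17 lower. Separation and call rest on the same 10 arrays, so this count is a description and no independent support. The 7 without a call were miR-1897-5p, miR-1187, miR-574-5p, miR-674*, miR-30d, miR-195 and miR-15a. A call did not require separation: 45 called miRNAs were not separated. Their spleen means lay on both sides of, or between, the marrow means, or tied with a marrow mean at the floor, as in miR-130a. The median difference over all 175 was 0.11 on the log2 scale. It was -0.02 when arrays were scaled to the 75th percentile of all miRNAs and 0 after quantile normalization, and the split of calls became 25 higher and 41 lower under that scaling and 37 and 50 after quantile normalization. Small differences near this shift therefore depend on the scaling.

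These calls use the spread between the 2 arrays of a population. When the populations were entered as a random block, the arrays of a population were treated as correlated, with 1 correlation, 0.697, for all miRNAs. The error still drew in part on the spread between arrays, so this is no test over populations alone. Only 6 calls were made. These were miR-34a, miR-342-3p, miR-709, miR-142-3p and miR-423-5p, higher in spleen DC, and miR-148a, lower. With 3 populations against 2, an exact permutation test over populations cannot give a p below 0.2.

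miR-34a, a miRNA that p53 induces and that in human cells is raised as monocytes become DC, had the largest difference of all 175. Its gene lies at chr4:150068473-150068494 on the plus strand. On the log2 scale miR-34a had 0.12 and 0.10 in CD4+ DC, -1.43 and -1.14 in CD8+ DC, and 0.36 and -0.15 in CD4-CD8- DC, against -4.10 and -5.16 in PDC and -4.90 and -5.13 in Gr1+ monocytes. Every spleen array was above every marrow array, and the lowest spleen DC were the CD8+ DC. The difference was 4.47 ± 0.18 (SE, limma adjusted p = 4.34e-07), and 0.00586 was its adjusted p with populations as a random block. CD8+ DC differed from the mean of the other spleen DC by -1.39 on the log2 scale, which was called, and PDC minus monocytes was 0.39.

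miR-146a, which NF-kB induces and which represses the signalling adaptors Traf6 and Irak1, was also far above both marrow populations. It had 1.15 and 1.15 in CD4+ DC, 0.32 and 0.38 in CD8+ DC, and 0.69 and 0.56 in CD4-CD8- DC, against -0.55 and -1.59 in PDC and -4.12 and -4.96 in Gr1+ monocytes. The groups did not overlap, and the marrow populations stood far apart, with PDC 3.47 above monocytes. The difference was 3.51 ± 0.20 (SE, adjusted p = 1.88e-06) against the marrow mean, 1.78 against PDC and 5.25 against monocytes. With populations as a random block its adjusted p was 0.073. In its relative miR-146b the spleen arrays lay between -4.25 and -3.8, PDC had -5.30 and -5.15, and monocytes had -4.27 and -4.38. Spleen DC were 1.16 above PDC in miR-146b (adjusted p = 0.000138), while the value of 0.26 against monocytes had an adjusted p of 0.167.

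miR-155 is induced by Toll-like receptor signals in DC and macrophages and comes from the host transcript Mir155hg, at chr16:84714143-84714165. It had -2.42 and -1.91 in CD4+ DC, -2.16 and -0.86 in CD8+ DC, and -0.85 and -0.76 in CD4-CD8- DC, against -3.48 and -3.39 in PDC. Gr1+ monocytes were at the floor on both arrays and miR-155 was not well above background there. Spleen DC were therefore at least 12.0-fold above monocytes, and 1.94 above PDC on the log2 scale (adjusted p = 0.000723). The fitted difference from the marrow mean, 2.99 ± 0.23 (SE, adjusted p = 1.78e-05), rests on the floor for monocytes and is no bound. The adjusted p was 0.073 with populations as a random block.

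miR-155, miR-146a and miR-146b belong to the list of miRNAs induced on activation of immune cells, of whose 8 members 4 were tested. These 3 were called higher and separated, the fourth, miR-212, was not called, and the median of the 4 was 1.85 beside 0.11 over all 175 tested miRNAs. Of all 175, 25.1% were called higher and 16.6% were separated with higher means. On the list of myeloid miRNAs, miR-21, which many cell types raise on activation, was called higher than the marrow mean (0.76, adjusted p = 0.0293) but not separated. miR-21 had 2.66 and 2.40 in CD4+ DC, 2.27 and 2.03 in CD8+ DC, and 2.27 and 2.74 in CD4-CD8- DC, against 1.32 and -0.01 in PDC and 2.88 and 2.33 in Gr1+ monocytes. The spleen arrays overlapped those of monocytes. With a single array left out the difference from the marrow mean was 0.43, without the second PDC array, to 1.10, without the first. The call was lost without the second array of any of the 5 populations and without the first array of CD4+ or CD8+ DC, and also with scaling over all miRNAs (0.56, adjusted p = 0.117) and with populations as a random block. miR-21 was 1.74 higher than in PDC (adjusted p = 0.00192), and the difference of -0.21 from monocytes did not pass the test.

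**Figure D2:**
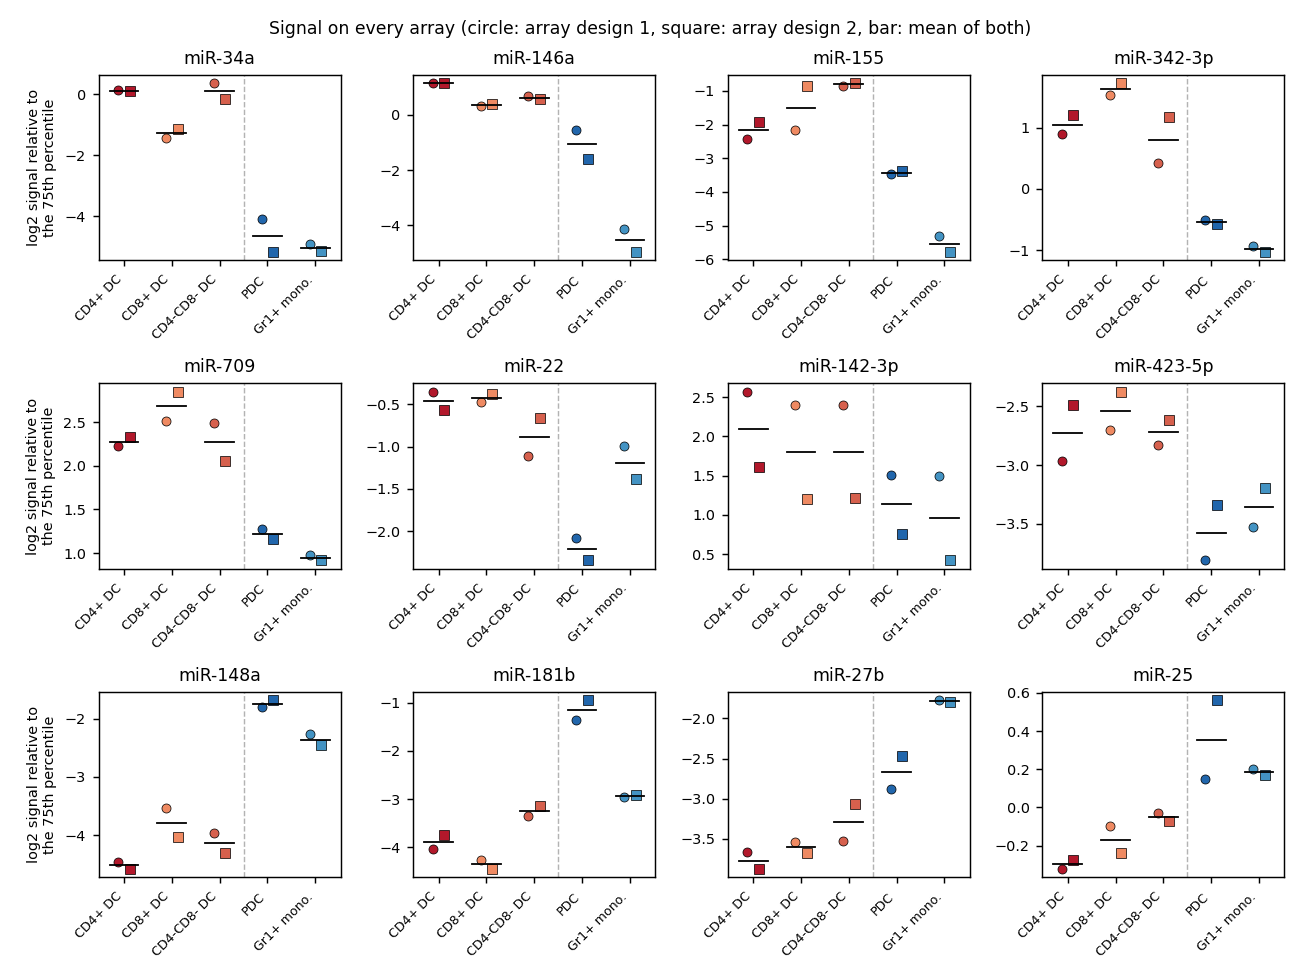
Scaled log2 signal (vertical axes, 0 at the 75th percentile) for 12 miRNAs on each of the 10 arrays, with spleen DC left and marrow cells right of the dashed line. Circles are array design 1, squares are design 2 and bars are the means of both. In miR-34a, miR-342-3p and miR-709 all spleen points lie above all marrow points, in miR-148a all lie below, and in miR-142-3p the designs differ by about as much as the groups.

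miR-142, transcribed from a locus active in nearly all blood cells and needed in mice for CD4+ DC, gave higher signal from both arms. The hairpin lies on chromosome 11, with the 5p arm at chr11:87756867-87756887 and the 3p arm at chr11:87756903-87756925. On the log2 scale miR-142-3p had 2.57 and 1.61 in CD4+ DC, 2.39 and 1.20 in CD8+ DC, and 2.40 and 1.21 in CD4-CD8- DC, against 1.51 and 0.76 in PDC and 1.5 and 0.42 in Gr1+ monocytes. The second array of each pair, on design 2, was the lower one throughout, and within each design every spleen array was above every marrow array. The difference was 0.85 ± 0.12 (SE, adjusted p = 0.000381), 0.95 on design 1 and 0.75 on design 2, and it kept its call with populations as a random block (adjusted p = 0.0425). For miR-142-5p the difference was 0.88 ± 0.11 (SE, adjusted p = 0.000227), with a random-block adjusted p of 0.0801.

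The arms of miR-342, which lies in an intron of Evl at chromosome 12, were both separated. miR-342-3p had 0.90 and 1.20 in CD4+ DC, 1.53 and 1.73 in CD8+ DC, and 0.41 and 1.18 in CD4-CD8- DC, against -0.52 and -0.58 in PDC and -0.94 and -1.03 in Gr1+ monocytes. The groups did not overlap on any array. The difference was 1.92 ± 0.18 (SE, adjusted p = 4.25e-05), and 0.023 with populations as a random block. The weak 5p arm was detected on 6 of 6 spleen arrays and 1 of 4 marrow arrays, and its difference of 0.56 (adjusted p = 0.012) is set by the floor.

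miR-22, from the noncoding host gene Mir22hg at chr11:75463772-75463793, was separated from both marrow populations by unequal distances. It had -0.35 and -0.57 in CD4+ DC, -0.48 and -0.38 in CD8+ DC, and -1.11 and -0.66 in CD4-CD8- DC, against -2.08 and -2.34 in PDC and -1.0 and -1.39 in Gr1+ monocytes. On design 1 the CD4-CD8- DC array lay below the monocyte array. The difference was 1.11 ± 0.14 (SE, adjusted p = 0.000198), made of 1.62 against PDC and 0.60 against monocytes, and 0.170 was the random-block adjusted p.

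miR-423-5p, which lies in Nsrp1 at chr11:77078122-77078144, gave a smaller but even difference. It had -2.97 and -2.49 in CD4+ DC, -2.70 and -2.37 in CD8+ DC, and -2.83 and -2.61 in CD4-CD8- DC, against -3.81 and -3.34 in PDC and -3.53 and -3.19 in Gr1+ monocytes. All spleen arrays were above all marrow arrays. The difference was 0.81 ± 0.08 (SE, adjusted p = 7.09e-05), and 0.0159 with populations as a random block. Under normexp background correction it was 0.02.

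miR-709 had 2.05 to 2.85 on the spleen arrays, against 1.16 and 1.28 in PDC and 0.92 and 0.98 in Gr1+ monocytes. The groups did not overlap, and the difference was 1.32 ± 0.12 (SE, adjusted p = 3.72e-05). miR-151-5p, encoded in the focal adhesion kinase gene Ptk2, lay between -2.23 and -1.18 in spleen DC and had -3.22 and -2.98 in PDC, and it was not well above background in Gr1+ monocytes. Spleen DC were 1.38 above PDC on the log2 scale (adjusted p = 0.000354) and at least 10.3-fold above monocytes. Both were thus higher than in each marrow population.

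The other miRNAs with higher separated means and a call had differences between 0.39 and 1.21. They included miR-690 (1.21), miR-361 (0.78, from Chm), miR-30a (0.74) and miR-350 (0.60, from Cep170). miR-361 and miR-350 were not separated with scaling over all miRNAs, after quantile normalization or under normexp. The normexp difference of miR-361 was 0.02. The miR-30 family, abundant in many tissues, had 3 of 5 tested members called higher, beside 25.1% of all tested miRNAs, and 0 lower. Separated were 3, beside 16.6% of all with higher means, and the median of the family was 0.34. That median was 0.13 with scaling over all miRNAs, 0.09 after quantile normalization and -0.07 under normexp, beside medians over all tested miRNAs of -0.02, 0 and -0.37 in those settings. miR-720, now regarded as a transfer RNA fragment, had a difference of 0.64 (adjusted p = 0.0206). miR-200b, miR-680, miR-674* and miR-342-5p lay at or near the floor in the marrow cells and their differences are limited by it. Some spleen arrays were also at or near the floor, and miR-680 was detected on 4 of 6 spleen arrays and on none of CD4-CD8- DC, so no bound is given for them.

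Of the miRNAs lower in spleen DC, miR-148a had the largest difference. It has been described in mouse DC as a repressor of the kinase gene Camk2a and lies at chr6:51269829-51269850. miR-148a had -4.47 and -4.58 in CD4+ DC, -3.53 and -4.04 in CD8+ DC, and -3.97 and -4.30 in CD4-CD8- DC, against -1.80 and -1.68 in PDC and -2.26 and -2.46 in Gr1+ monocytes. Every spleen array was below every marrow array. The difference was -2.10 ± 0.09 (SE, adjusted p = 4.34e-07), with -1.96 on design 1 and -2.25 on design 2, and it kept its call with populations as a random block (adjusted p = 0.00773). miR-148b, with the same seed, differed by -0.04 and was not called (adjusted p = 0.74).

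miR-181b and miR-181d belong to the miR-181 family, which tunes antigen receptor signalling in lymphocytes. miR-181b is encoded on chromosomes 1 and 2, and miR-181d at chr8:84178759-84178781. miR-181b had -4.03 and -3.75 in CD4+ DC, -4.26 and -4.45 in CD8+ DC, and -3.35 and -3.14 in CD4-CD8- DC, against -1.36 and -0.95 in PDC and -2.97 and -2.91 in Gr1+ monocytes. The groups did not overlap, but most of the distance was to PDC (-2.68, adjusted p = 6.53e-07) rather than to monocytes (-0.89, adjusted p = 0.000447). Its seed relatives miR-181a and miR-181c lay between the marrow populations: in miR-181a spleen DC differed from PDC by -2.35 and from monocytes by 0.63, both called. miR-181d was detected on 4 of 6 spleen arrays, and its difference of -1.66 (adjusted p = 9.88e-05) is limited by the floor.

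The miR-23, miR-27 and miR-24 miRNAs come from paired clusters, and those named b lie in Aopep on chromosome 13. All 5 tested were called lower against the marrow mean, beside 22.9% of all tested miRNAs. Their median was -0.86 beside 0.11 over all tested miRNAs, and miR-27b and miR-23b were separated. Against each marrow population alone, 2 of 5 were called lower than in PDC, with a median of -0.16, and 5 of 5 lower than in monocytes, with a median of -1.0. Among all tested miRNAs 18.3% were called lower than in PDC and 17.1% lower than in monocytes. miR-27b had -3.67 and -3.88 in CD4+ DC, -3.54 and -3.68 in CD8+ DC, and -3.53 and -3.07 in CD4-CD8- DC, against -2.88 and -2.46 in PDC and -1.77 and -1.79 in Gr1+ monocytes. Every spleen array lay below every marrow array, and monocytes were the highest population. The difference was -1.33 ± 0.11 (SE, adjusted p = 2.01e-05), and 0.073 was the random-block adjusted p. Its near copy miR-27a differed from monocytes by -1.92 (adjusted p = 0.000123), and its difference of -0.16 from PDC did not pass the test.

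The miR-25, miR-93 and miR-106b cluster lies in an intron of the replication gene Mcm7, between chr5:138165332-138165353 and chr5:138165787-138165807 on the minus strand, and is related to the miR-17 cluster of dividing cells. All 3 miRNAs were separated and called lower than the marrow mean, and only miR-25 was called lower than each marrow population. miR-106b was called against PDC and not against monocytes (-0.21, limma adjusted p = 0.167). miR-93 was called against monocytes and not against PDC (-0.22). miR-25 had -0.32 and -0.27 in CD4+ DC, -0.10 and -0.24 in CD8+ DC, and -0.03 and -0.07 in CD4-CD8- DC, against 0.15 and 0.56 in PDC and 0.20 and 0.17 in Gr1+ monocytes. The groups did not overlap, and the difference was -0.44 ± 0.08 (SE, adjusted p = 0.00194). For miR-93 it was -0.57 (adjusted p = 0.00188) and for miR-106b -0.36 (adjusted p = 0.00862), and none of the 3 kept its call with populations as a random block. The passenger strand miR-106b* lay at the floor on all 10 arrays. Of 10 tested members of the miR-17 clusters, 6 were called lower and 0 higher, with a median of -0.28, and all 10 had a negative difference. Against PDC alone 1 was called higher and 2 lower, with a median of 0.06, and against monocytes alone 0 were higher and 6 lower, with a median of -0.44. The 10 include miR-25, miR-93 and miR-106b themselves. Among all tested miRNAs lower calls made up 22.9% against the marrow mean, 18.3% against PDC and 17.1% against monocytes.

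The miR-532 cluster of chromosome X, in the gene Clcn5, had 7 tested members, of which 5 were called lower than the marrow mean and 2 were separated. The calls were against PDC. miR-532-5p had -4.61 and -4.25 in CD4+ DC, -4.02 and -4.07 in CD8+ DC, and -4.46 and -4.13 in CD4-CD8- DC, against -1.60 and -1.25 in PDC and -3.87 and -3.99 in Gr1+ monocytes. Its difference from PDC was -2.83 (adjusted p = 4.51e-06), and its difference of -0.33 from monocytes did not pass the test (adjusted p = 0.235). Against PDC alone 5 of the 7 were called lower, and against monocytes alone limma called 0 of 7. Lower calls over all tested miRNAs made up 22.9% against the marrow mean, 18.3% against PDC and 17.1% against monocytes. The median of the 7 against monocytes was 0. miR-532-3p differed from monocytes by 0, as values do where both sides lie at the floor, and miR-362-3p by -0.02. A difference in such members can be hidden by the floor, so the lack of calls does not show equal levels. miR-374, elsewhere on chromosome X in the noncoding gene Ftx, differed from PDC by -1.68 and from monocytes by -0.40, both called.

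The remaining separated miRNAs that were lower were miR-378, miR-10a, miR-103, let-7i, miR-669a and miR-669f. miR-378, which is linked to fat and energy metabolism, was called in all 6 single pairs, with a difference of -1.37 ± 0.20 (SE, adjusted p = 0.000425). miR-10a, from the Hoxb cluster near Hoxb3, had -0.81 (adjusted p = 0.0293), with its CD4-CD8- DC arrays at -4.26 and -2.79. Its call was lost in 9 of 26 alternative settings, among them against PDC alone (-0.42). The separation of miR-10a was lost after quantile normalization and under normexp. The call of let-7i (-0.21) was lost in 13 of 26 settings, and its separation under normexp. The miR-669 miRNAs have many near-identical copies in the mouse genome and lay close to the floor, so they are uncertain. Nearest to overlap were miR-195, whose lowest spleen mean was 0.01 above the higher marrow mean, and miR-10a, whose margin was 0.04. Just outside the rule, miR-106b* and miR-744 had a margin of 0 that the floor sets. Others had the same margin of 0, among them miR-138 and miR-196b, which were called.

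In stricter descriptions of the same order, 26 miRNAs (14.9%) had every spleen array on one side of every marrow array within each design. The side was the same on both designs, higher in 15 (8.57%) and lower in 11 (6.29%). Arrays of different designs were not set against each other in this count. In single comparisons of 1 spleen with 1 marrow population, 13 of 175 (7.43%) were called the same way in all 6 pairs. The 10 higher (5.71%) were miR-34a, miR-146a, miR-155, miR-151-5p, miR-342-3p, miR-709, miR-142-3p, miR-142-5p, miR-423-5p and miR-361, and the 3 lower (1.71%) were miR-148a, miR-27b and miR-378. The 6 pairs share arrays and are not independent. With scaling over all miRNAs the counts were 2 higher and 2 lower, and after quantile normalization 4 and 8. CD8+ DC had more higher than lower calls, 66 and 27 against PDC and 57 and 26 against monocytes, where CD4+ DC had 32 and 36, and 34 and 32, and CD4-CD8- DC had 28 and 27, and 30 and 21. Without CD8+ DC the calls against the marrow mean were 30 higher and 37 lower. The splits for single spleen populations were counted only with the scaling used in the text. On each design the CD8+ DC array had the lowest scaling factor of the compared arrays (391.8 and 465.2). With scaling over all miRNAs its factors were 10.55, the highest of these on design 1, and 11.94, below PDC and CD4+ DC on design 2. How these splits change with that scaling was not tested.

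The spleen DC were then set against each marrow population alone. Against PDC, 75 miRNAs (42.9%) were called, 43 higher (24.6%) and 32 lower (18.3%). Against Gr1+ monocytes, 72 (41.1%) were called, 42 higher (24%) and 30 lower (17.1%). These comparisons share the 6 spleen arrays. In 24 miRNAs spleen DC were called higher than both and in 10 lower than both. PDC and monocytes themselves differed in 71 of 175 miRNAs (40.6%) and in 16 of the 46 separated ones.

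**Figure D3:**
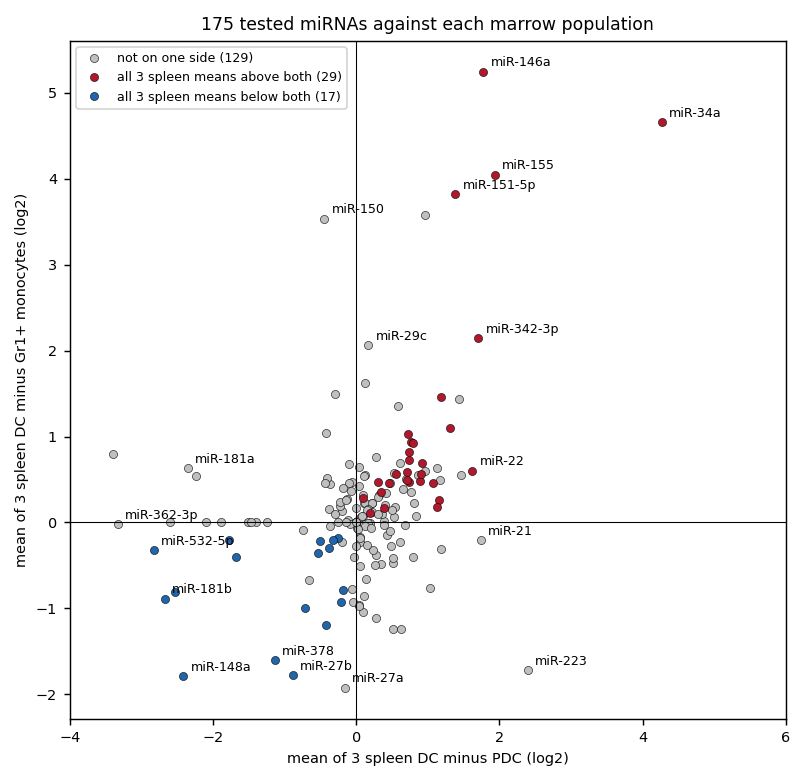
Difference between the mean of the 3 spleen DC populations and PDC (horizontal axis, log2) and between the same spleen mean and Gr1+ monocytes (vertical axis, log2) for the 175 tested miRNAs. Both axes share the spleen arrays. The separated miRNAs lie in the upper right and lower left, miR-223 lies far to the lower right, and miR-181a lies to the upper left.

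For some well-known miRNAs of blood cells, spleen DC lay between the marrow populations. miR-223, which restrains granulocyte production and activation, had 2.27 and 2.24 in CD4+ DC, 3.34 and 3.23 in CD8+ DC, and 2.53 and 2.60 in CD4-CD8- DC, against 0.52 and 0.09 in PDC and 4.54 and 4.30 in Gr1+ monocytes. Its arrays lay above all PDC arrays and below all monocyte arrays. It differed from PDC by 2.40 and from monocytes by -1.72 on the log2 scale, both called. Also called higher than PDC and lower than monocytes were miR-16, miR-18a, miR-322, miR-340-3p and miR-652. Called the other way, lower than PDC and higher than monocytes, were miR-181a, miR-181c, miR-128, miR-107, miR-130b and let-7g. For these 12 the mean of both marrow populations describes neither.

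Further members of the lists are given against each marrow population. miR-150, a repressor of Myb in lymphocytes, was 3.53 higher than in monocytes (adjusted p = 0.000345), and its difference of -0.44 from PDC did not pass the test. The miR-29 family, which represses DNA methyltransferases and collagens, had 3 of 3 members called higher than the marrow mean, with a median of 0.87. The family was called higher in 3 of 3 against monocytes and in 0 of 3 against PDC (limma). Among all tested miRNAs 25.1% were called higher than the marrow mean, 24% than monocytes and 24.6% than PDC. The median difference of all from the marrow mean was 0.11. miR-126-3p, known in stem cells, endothelium and PDC, was not well above background on any spleen array, where PDC were at least 2.89-fold higher and monocytes were at the floor. miR-221 and miR-222, repressors of Kit and Cdkn1b, were both called lower, beside 22.9% of all tested miRNAs. Their median was -0.54, and they were highest among spleen DC in CD8+ DC. miR-221 was called lower than in PDC (-0.66) and than in monocytes (-0.67), but it was not separated. miR-222 was called lower than in PDC (-0.75), and its difference of -0.09 from monocytes did not pass the test.

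The remaining lists are read beside the shares over the whole table, 25.1% with a higher call and 22.9% with a lower call. Against PDC these shares were 24.6% and 18.3%, and against monocytes 24% and 17.1%. The stem and early progenitor list had 2 of 7 tested members called higher and 4 lower, with a median of -0.70. Its median was -0.42 against PDC, with 2 higher and 3 lower, and 0.01 against monocytes, with 1 higher and 1 lower. The myeloid list had 3 of 6 higher and 1 lower, with a median of 0.55, and the lymphocyte list 3 of 7 higher and 4 lower, with a median of -0.85. Each of these medians has another sign against one marrow population. The myeloid median was 0.75 against PDC, with 6 of 6 higher, and -0.31 against monocytes, with 2 higher and 3 lower. The lymphocyte median was -2.24 against PDC, with 2 higher and 4 lower, and 0.56 against monocytes, with 5 higher and 2 lower. The let-7 family had 2 of 9 higher and 1 lower, which is near the share over all miRNAs for the higher calls. Its median was 0.18, and -0.02 with scaling over all miRNAs, -0.10 after quantile normalization and -0.02 under normexp, beside 0.11, -0.02, 0 and -0.37 over all tested miRNAs. It was -0.09 against PDC, with 1 higher and 2 lower, and 0.42 against monocytes, with 4 higher and 0 lower. The family of miR-15 and miR-16 had 1 of 4 lower and 0 higher, with a median of 0.02, and of -0.18, -0.41 and -0.07 in the same 3 settings. The miR-130 and miR-301 family had 1 of 3 lower, miR-130a. Of 31 listed miRNAs of the Dlk1-Dio3 locus 2 were tested and 1, miR-370, was called higher. miR-1906 is not on that list, and RefSeq places 1 of its 2 copies within Meg3 on chromosome 12. It was called higher and separated (0.76, adjusted p = 6.88e-05).

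Markers of other blood cells were present to differing degrees. The erythroid miR-451 and miR-486 summed to 0.178 to 1.28 times the 75th percentile on spleen arrays, against 0.155 to 0.362 in PDC and 0.0536 to 0.0602 in Gr1+ monocytes, and miR-144 was not among the tested. miR-451 itself was called higher than the marrow mean (2.27, adjusted p = 0.0248) and not than PDC (0.97, adjusted p = 0.418). With a single array left out the difference was 1.66 to 2.88, and the call was lost without the first array of monocytes, PDC, CD4+ DC or CD8+ DC and without the second of CD4-CD8- DC. It was also lost without both CD4+ DC or both CD8+ DC arrays, under normexp and with populations as a random block. The 4 lymphocyte markers, which include miR-342-3p and miR-181b, summed to 2.28 to 4.15 in spleen DC, 3.08 to 3.65 in PDC and 0.854 to 0.918 in monocytes. The 3 granulocyte and monocyte markers summed to 8.14 to 16 in spleen DC, 3.0 to 4.58 in PDC and 21.3 to 26.4 in monocytes. Of 16 endothelial, stromal, muscle and epithelial markers 3 were tested, and their sum was 0.0591 to 0.0946 in spleen DC, 0.118 to 0.135 in PDC and 0.0546 to 0.0762 in monocytes. The 5 stem and progenitor markers summed to 0.136 to 0.303, 0.247 to 0.316 and 0.160 to 0.175 in the same order, and 3 of them were detected on no spleen array. The part of such cells in the differences was not tested, and no marker of DC themselves is among these miRNAs.

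The marrow progenitors, sorted as CD135+ cells without lineage markers from pools of 15 mice, were set beside the mature cells. Of the 46 separated miRNAs, 37 (21.1% of the 175 tested) had all 3 spleen means on one side of the means of all 5 marrow populations, 24 higher (13.7%) and 13 lower (7.43%). Spleen DC minus the progenitor mean was called in 110 of 175 (62.9%), 38.3% higher and 24.6% lower, and in the direction of the separation in 38 of the 46. For the mature marrow cells minus the progenitors, 88 of 175 (50.3%) were called, 28% higher and 22.3% lower, 19 of the 46 in the direction in which spleen DC were separated and 10 in the opposite one. These comparisons share the progenitor arrays. They also reuse the spleen and mature marrow arrays by which the 46 were chosen. The counts among the 46 are therefore a description and no independent support.

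**Figure D4:**
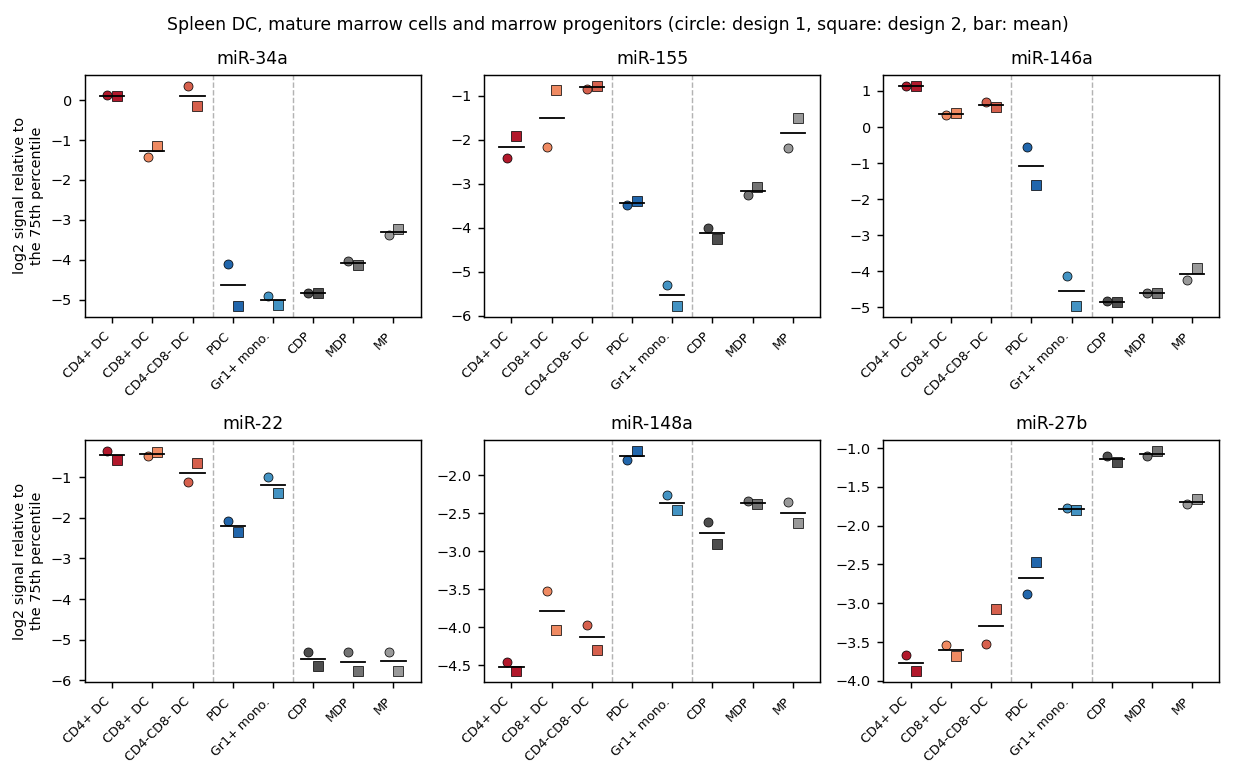
Scaled log2 signal (vertical axes, 0 at the 75th percentile) for 6 miRNAs in spleen DC, mature marrow cells and marrow progenitors, separated by dashed lines, on each of 2 arrays per population (circle design 1, square design 2, bar mean). miR-22 lies at or near the floor in all progenitors, miR-34a and miR-155 are higher in MP than in the mature marrow cells, and miR-148a in spleen DC lies below all 5 marrow populations.

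miR-34a differed from the progenitor mean by 3.72 in spleen DC and by -0.75 in the mature marrow cells, both called. Among progenitors it had -4.84 and -4.83 in CDP, -4.03 and -4.12 in MDP, and -3.39 and -3.22 in MP, so all spleen arrays were above all progenitor arrays. miR-155 had a similar order, with -4.0 and -4.25 in CDP, -3.24 and -3.07 in MDP, and -2.18 and -1.51 in MP, and MP arrays overlapped those of spleen DC. miR-22 was detected on 2 of the 6 progenitor arrays, and its differences of 4.93 in spleen DC and 3.82 in the mature marrow cells are limited by the floor. miR-148a differed from the progenitor mean by -1.61 in spleen DC and by 0.49 in the mature marrow cells, both called. miR-27b differed by -2.26 in spleen DC and by -0.93 in the mature marrow cells, both called. miR-532-5p and miR-500 went the other way, with positive differences in spleen DC (1.15 and 0.76) that were smaller than in the mature marrow cells (2.73 and 1.75).

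The separations were also set against other processing of the same arrays. With scaling to the 75th percentile of all miRNAs, 18 of the 29 higher and 17 of the 17 lower miRNAs were still separated the same way, and with quantile normalization 19 and 16 were. Both settings kept 16 higher and 16 lower. Under normexp background correction the median of all miRNAs was -0.37, and 11 of the 29 higher and 13 of the 17 lower remained separated. Separated in all 4 among the higher were miR-34a, miR-146a, miR-155, miR-151-5p, miR-342-3p, miR-709, miR-22, miR-142-5p and miR-720. Among the lower these were miR-148a, miR-181b, miR-181d, miR-27b, miR-23b, miR-25, miR-93, miR-106b, miR-103, miR-374, miR-378, miR-500 and miR-532-5p. miR-423-5p lost its separation under normexp and miR-142-3p with scaling over all miRNAs. Under each of the other settings separation was lost for miR-146b, miR-361, miR-350, miR-7a, miR-30b, miR-30d and miR-195.

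**Figure D5:**
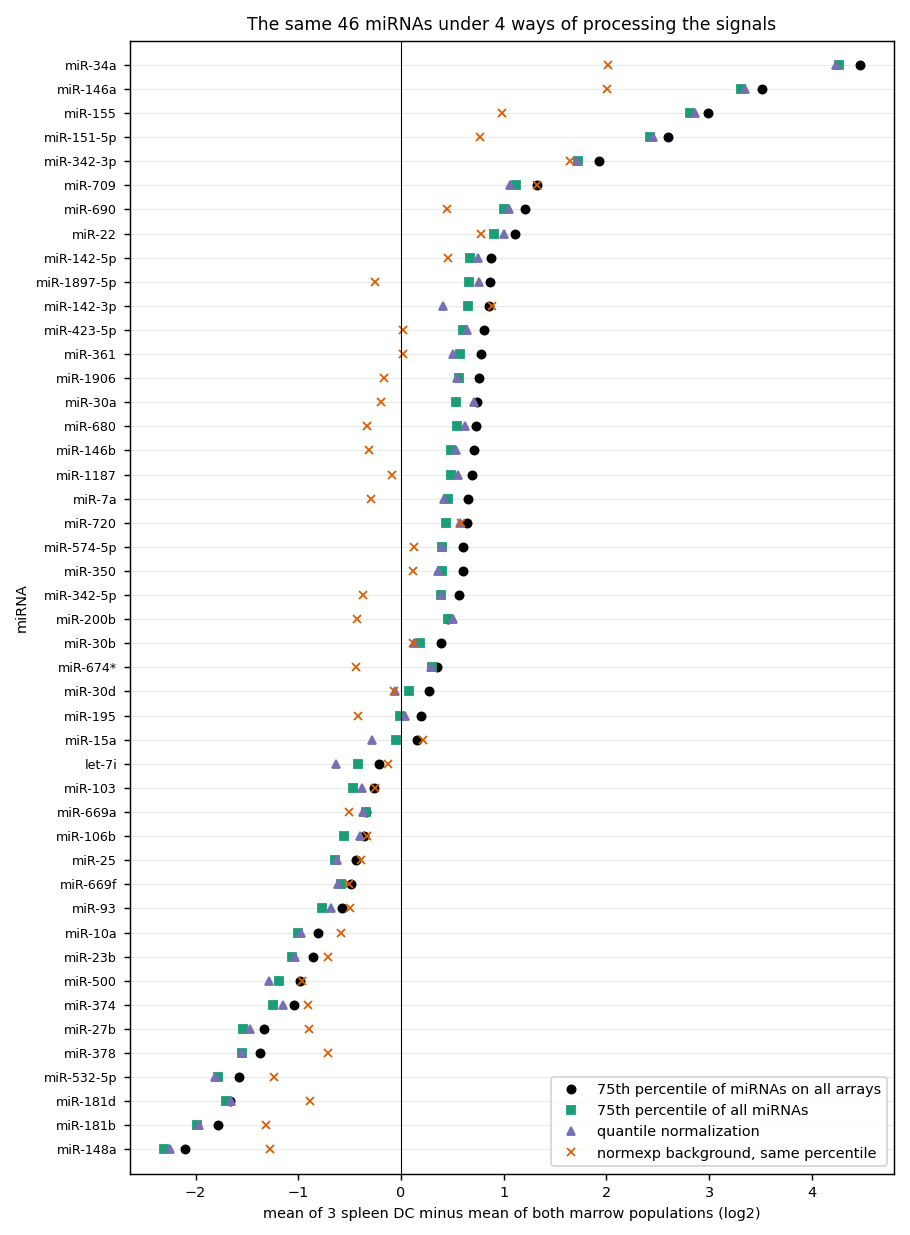
Difference between the mean of the 3 spleen DC populations and the mean of both marrow populations (horizontal axis, log2) for the 46 separated miRNAs under 4 ways of processing the signals. Black circles are the values used in the text. The differences of miR-34a and miR-148a keep their sign in all 4, and those between miR-1897-5p and miR-674* lie near or below 0 under normexp in most rows.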

How the data were processed

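Total RNA had been labelled with Cy3 and hybridised to 1-colour Agilent miRNA arrays, per the labels' protocols. The deposited intensity of each spot was the background-corrected processed signal on a linear scale, which the authors made with Feature Extraction, version 10.7.3.1 in the file headers and 9.1 per the submitters' processing notes. Series tables held the same signals rounded to 3 digits. All first replicates shared array design 1, slide 1 and scan 1, and all second replicates design 2, so the replicate number marks the design and pairs the arrays. Deviations of same-numbered arrays correlated in all 10 pairs of the 5 populations (r from 0.297 to 0.675).

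Outlier spots were left out, and spots, then probes, were averaged. Detection required a share of 0.5 of a probe's spots well above background. As scaling factor an array took its 75th percentile over the 88 miRNAs that all 16 arrays detected. Values were floored at the design's median 5th percentile of detected values, and log2 was taken. Of the 175 tested (detected on both arrays of a population), 21 to 57 per array lay at the floor, where SEs can be too small. limma 3.58.1 in R 4.3.3 fitted all 16 arrays with the design as a block, and p-values were adjusted by Benjamini-Hochberg within a comparison. Bounds written "at least" set the dim side of each array to its own value or the lowest detected probe, whichever was higher. The fit was also run on simulated data with independent errors between arrays, and the outcome is not reported here. The arrays are few, which limits the precision, and p-values measure the spread between the pools as labelled.

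The miRNAs named were the 15 highest and 15 lowest that were separated, called and of one sign on both designs, up to 3 per list with the smallest p, 10 well-known ones, and those nearest to the rule's edge. Others were chosen after their values were seen, among them the members of a group counted. The populations and lists were chosen with earlier results of these data known.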

Additional observations from a re-analysis of the deposited data

Results flagged for a closer look

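Named miRNAs whose difference from spleen DC was unequal for the marrow populations were marked by the test of PDC minus Gr1+ monocytes in limma, which passed for 36. On the log2 scale PDC minus monocytes was positive for the following. It was 3.47 for miR-146a, 2.44 for miR-151-5p, 2.11 for miR-155 and 0.62 for miR-148a. In the miR-181 family it was 2.98 for miR-181a, 1.79 for miR-181b and 1.72 for miR-181d. On chromosome X it was 3.31 for miR-362-3p, 2.5 for miR-532-5p, 2.09 for miR-532-3p, 1.58 for miR-500 and 1.29 for miR-374. It was 3.97 for miR-150, 1.49 for miR-29a, 1.79 for miR-29b and 1.89 for miR-29c. For miRNAs of stem cells it was 1.89 for miR-126-3p, 1.40 for miR-130a and 1.51 for miR-196b. Smaller values were 0.90 for miR-130b, 0.65 for miR-222, 0.53 for let-7a, 0.42 for miR-30e and 0.38 for let-7d. In monocytes miR-151-5p, miR-155, miR-126-3p, miR-130a and miR-196b were not well above background on either array, so these 5 values are limited by the floor and are no bounds. Spleen DC differed from monocytes by 0 in miR-532-3p and by -0.02 in miR-362-3p, so the values of these miRNAs may be limited by the floor as well.

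PDC minus monocytes was negative for the others. It was -4.12 for miR-223, -1.95 for miR-21 and -1.76 for miR-322. It was -1.76 for miR-27a and -0.89 for miR-27b. It was -1.13 for miR-17, -0.71 for miR-93 and -0.38 for miR-15b. It was -1.02 for miR-22, -0.90 for miR-146b, -0.62 for miR-1906 and -0.61 for miR-669f. miR-17 and miR-669f were well above background on 1 of 2 PDC arrays.

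For 17 named miRNAs the spleen populations were unequal among themselves, by the test of CD8+ DC minus the mean of CD4+ and CD4-CD8- DC. The value was positive for miR-370 (1.51), miR-680 (1.47), miR-221 (1.23), miR-222 (0.94), miR-223 (0.88), miR-130b (0.77), miR-486 (0.68), miR-1906 (0.62), miR-17 (0.58), miR-148a (0.54) and miR-374 (0.37). It was negative for miR-34a (-1.39), miR-99a (-1.23), miR-322 (-0.85), miR-181b (-0.78), miR-181a (-0.68) and miR-361 (-0.47). CD4-CD8- DC were not well above background on either array for miR-370, miR-680 and miR-486, and CD4+ DC not for miR-486, so those values are limited by the floor. CD8+ DC were the only spleen population gated on CD86, per the labels.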

How the results depend on the processing

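Of 57 named and called miRNAs, 46 kept their call whichever single array was left out, 46 kept it without the replicate block and 6 with populations as a random block. Leaving out 1 of the 10 arrays gave 37 to 47 higher and 33 to 42 lower calls against the marrow mean, 26 to 35 and 15 to 26 separated miRNAs, 29 to 42 and 27 to 34 calls against PDC, and 25 to 48 and 19 to 31 against monocytes; the second monocyte array alone moved separated lower miRNAs to 26 and higher calls against monocytes to 25, and the first moved lower calls against monocytes to 19. Without the replicate block there were 34 higher and 30 lower calls, and 28 higher against PDC. Scaling over all miRNAs gave 25 higher calls, 18 separated higher, 22 higher against PDC, 19 higher against monocytes, and 2 higher in all 6 pairs. Quantile normalization gave 28 separated lower, 26 higher against monocytes, and 4 higher and 8 lower in all 6 pairs. Normexp gave 9 higher and 15 lower calls, 12 separated higher, 9 and 7 against PDC, 12 and 113 against monocytes, where its median difference was -0.86, and 2 and 0 in all 6 pairs. Only 88 miRNAs remained when detection on all 16 arrays was required, with 26 lower calls and 19 lower against PDC. The random block gave 5 higher and 1 lower, with 28 unadjusted p-values under 0.05. Separation gave 60 higher and 38 lower against PDC alone, 56 and 41 against monocytes alone, 28 lower without CD8+ DC, and 15 and 11 for every array within each design. The sign turned under quantile normalization for let-7a (-0.0596), let-7d (-0.0544) and miR-15a (-0.28). It turned under normexp for miR-146b (-0.31), miR-1906 (-0.17), miR-200b (-0.42), miR-30a (-0.20), miR-30e (-0.0536), miR-370 (-0.37), miR-680 (-0.33) and miR-99a (-0.32). Against PDC alone it turned for let-7a (-0.0555), miR-130b (-0.44), miR-150 (-0.44), miR-17 (0.0905), miR-29b (-0.29) and miR-322 (0.51). Against monocytes alone it turned for miR-126-3p (0.0109), miR-181a (0.63), miR-21 (-0.21) and miR-223 (-1.72). These causes were not tested. The alternatives for pairs were added after the data were seen. Low signal over background limits miRNAs at the floor.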
